A study of Arabidopsis thaliana with 9 samples.

Results

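The genes described here are those that the deposited annotation of *Arabidopsis thaliana* assigns to the Gene Ontology (GO) term defense response, after the large families of regulators and receptors that carry family names were set aside. The term was held by 175 of the 32833 genes in the expression table. Of these, 41 were left out because their name begins with WRKY, MYB, NAC, CRK, WAK, RLP, LECRK, ERF, JAZ, PUB, ATL, CYP, MPK or MKK, and 3 because they lie in one cluster of resistance genes on chromosome 4. The remaining 131 genes were chosen by annotation and name, with no use of expression values, but with earlier results of these data known. Transcripts were measured by RNA-Seq in shoots of the Columbia-0 genotype at an age of 4 weeks, with 3 samples of unstressed control plants, 3 of plants exposed to submergence for 30 min in still water in a container, and 3 of plants exposed for 30 min to flooding with physical flow at 8 L/s in a water channel. Each sample pooled the rosettes of several plants, and the study's methods call the samples independent biological replicates. The still and the moving water were applied in different vessels, so the vessel and the flow cannot be told apart.

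Plants recognise pathogens at 2 places. Receptors at the cell surface sense microbial molecules and peptides released from damaged cells, and within minutes calcium enters the cytosol and NADPH oxidases make reactive oxygen outside the cell. Inside the cell, nucleotide-binding leucine-rich repeat (NLR) receptors sense pathogen effectors, and their signals pass through EDS1 or NDR1 to salicylic acid (SA) synthesis and often to death of the infected cell. Jasmonic acid (JA), made from fatty acids by lipoxygenases, is the second main defence hormone and is perceived by COI1, which frees MYC transcription factors from repression. Several of these genes are also known to respond quickly to touch and wounding.

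The members fell into 9 groups by role. There were 31 NLR and TIR-domain immune receptors, 27 enzymes and transport proteins, 15 MLO membrane proteins, 15 defensins, 15 chaperones and signalling regulators, 9 small defence proteins and inhibitors, 5 NADPH oxidases, 5 kinases and hormone receptors, and 9 others. Levels are given as FPKM, fragments scaled to transcript length and library total, which compare genes per length. Over all 9 samples the mean of a member ranged from 0 to 751 FPKM, with a median of 11.1. A mean of at least 0.5 FPKM was reached by 107 members, 12 had a mean of at least 100 FPKM, and 11 were listed at 0 in all samples. The defensins were the least expressed of the larger groups, with 4 of 15 listed at 0 throughout and 7 at or above a mean of 0.5 FPKM. The rule used no GO term but defense response, beside gene names and an ID range, which also shape the shares of other terms. The plasma membrane was annotated for 36 members (27.5%) against 16.1% of all annotated genes, and the extracellular region for 32 (24.4%) against 9.55%. Cell death was annotated for 18 (13.7%) against 0.50% and calmodulin binding for 17 (13.0%) against 1.36%. Other terms were less common, such as nucleus, with 34 members (26.0%) against 38.3%, and chloroplast, with 14 (10.7%) against 17.6%.

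The samples within each group differed in their shoot apex transcripts and in the root marker PYK10. The shoot apex markers STM and KNAT1 were at or near 0 FPKM in control sample 2, submergence sample 3 and flooding sample 3 (0.06 at most) and between 0.85 and 4.95 in the other 6 samples. The summed level of all 4 apex markers ran from 0.04 to 3.04 FPKM in control, 0.08 to 9.68 under submergence and 0.08 to 6.41 under flooding, and WUS was at most 0.07. Some members had low values in the same samples, of which a pair is given, chosen after their values were seen. The peroxidase PER33 had 11.2 FPKM in control sample 2 against 41.1 and 28.7 in the other controls, 2.38 in submergence sample 3 against 61.7 and 24.1, and 2.23 in flooding sample 3 against 25.5 and 29.2. ML3 had its lowest value of each group in the same samples, at 73.6, 65.9 and 42.8 FPKM. The 4 leaf mesophyll markers, which check the shoot label, summed to between 30086 and 45044 FPKM in all samples, with 39022 to 45044 in control, 34239 to 37123 under submergence and 30086 to 37235 under flooding. The 4 root markers summed to 30.1 to 141 FPKM, nearly all of it PYK10, with EXPA7 at 0 throughout, and the flower markers to at most 0.6. PYK10 was also lowest of each group in the samples low in STM and KNAT1. It had 44.06 FPKM in control sample 2 against 105.98 and 69.16 in the other controls. In submergence sample 3 it had 67.75 against 120.6 and 76.81, and in flooding sample 3 it had 30.03 against 86.11 and 141.05. The 3 seed markers summed to 2.09 to 3.23 FPKM under flooding against 0.05 to 0.65 in control, nearly all from SESA1. The part of these tissues in the results was not tested beyond leaving out those samples, and in whole shoots fewer cells of a type and less RNA per cell cannot be told apart. The median SD of the members' log2 values was 0.15 in control, 0.23 under submergence and 0.20 under flooding, against 0.11, 0.17 and 0.19 over all genes.

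To show what sequence precedes some of the members that rose most, the 300 bases before the annotated start are given for 4 of them that overlap no other annotated gene. These are LOX4 and PEP3, whose rises under flooding rank highest and next after LOX3, RBOHD, with the smallest p between the stresses, and VICTL (AT5G46510), which holds both of the motifs that matched in the others. They were read from the RefSeq assembly TAIR10.1, on which all 131 members have the same start and end as in the deposited table. Capitals mark 2 motifs searched on both strands. One is the W-box (TTGACC or TTGACT), the site that WRKY factors are known to bind, and the other is CGCGTT, known as the rapid stress response element of genes induced by wounding.
LOX4, chr1:27308213-27308512, plus strand: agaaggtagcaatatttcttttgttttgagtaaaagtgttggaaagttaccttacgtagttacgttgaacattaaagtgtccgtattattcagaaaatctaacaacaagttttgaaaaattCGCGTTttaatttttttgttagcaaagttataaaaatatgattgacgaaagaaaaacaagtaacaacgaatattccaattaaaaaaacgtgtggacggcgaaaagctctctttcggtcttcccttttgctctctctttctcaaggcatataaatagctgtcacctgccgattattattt
PEP3, chr5:25939262-25939561, plus strand: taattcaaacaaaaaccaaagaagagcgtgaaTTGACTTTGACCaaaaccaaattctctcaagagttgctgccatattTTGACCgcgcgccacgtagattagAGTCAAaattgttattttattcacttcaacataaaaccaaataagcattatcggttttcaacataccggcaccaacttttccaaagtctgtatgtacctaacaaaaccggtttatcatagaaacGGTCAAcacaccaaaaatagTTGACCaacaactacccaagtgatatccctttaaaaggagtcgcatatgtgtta
RBOHD, chr5:19396741-19397040, plus strand: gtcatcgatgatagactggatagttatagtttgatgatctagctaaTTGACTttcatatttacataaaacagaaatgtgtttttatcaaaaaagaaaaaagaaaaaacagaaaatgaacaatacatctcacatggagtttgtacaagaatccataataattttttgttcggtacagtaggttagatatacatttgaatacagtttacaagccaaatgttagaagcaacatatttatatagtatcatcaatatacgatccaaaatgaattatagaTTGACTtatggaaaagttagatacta
VICTL, chr5:18859934-18860233, plus strand: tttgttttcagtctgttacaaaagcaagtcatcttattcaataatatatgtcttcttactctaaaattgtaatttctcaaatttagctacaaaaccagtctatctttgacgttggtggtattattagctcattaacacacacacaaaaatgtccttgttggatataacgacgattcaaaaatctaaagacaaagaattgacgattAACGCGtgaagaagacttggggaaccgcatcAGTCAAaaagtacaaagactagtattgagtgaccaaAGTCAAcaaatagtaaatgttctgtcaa
PEP3 held 6 W-box matches, of which the pair at 268 and 262 bases before the start lie end to end. RBOHD held 2 W-box matches, at 254 and 26 bases. LOX4 held no W-box match and 1 CGCGTT match at 179 bases. VICTL held both, with CGCGTT at 95 bases and W-boxes at 64 and 28 bases. Across 27419 nuclear protein-coding genes, 32.3% held a W-box match in this window, against 40.5% of the members, 17 of the 36 members called up under flooding (47.2%), 5 of the 14 called down (35.7%) and 19 of the 58 tested and not called (32.8%). CGCGTT was present in 3.08% of all genes, 6 of 131 members (4.58%), 0 of the 14 called down under flooding and 1 of the 58 not called (1.72%). It was present in 5 of the 36 members called up under flooding (13.9%), namely LOX4, NDR1, ADR1-L2, PGIP1 and VICTL. The G-box CACGTG, which MYC factors are known to bind, was present in 7.08% of all genes and 3 of 131 members (2.29%). A match is a description of the letters and not evidence of binding.

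After submergence, 31 of the 107 members tested were up-regulated and 7 were down-regulated (limma on log2(FPKM + 0.1), Benjamini-Hochberg adjusted p under 0.05 over all genes tested). That is 29.0% and 6.5% of the members, where 9.03% of the 18814 genes tested were up-regulated and 8.45% were down-regulated. After flooding with flow, 36 of 108 members were up-regulated and 14 were down-regulated. That is 33.3% and 13.0%, against 11.4% up and 17.2% down among 18806 genes. The median log2 fold change of the members was 0.19 under submergence and 0.17 under flooding, against -0.03 and -0.10 over all genes tested. This median is signed, so rises and falls offset each other in it. At an unadjusted limma p under 0.05, 55 of 107 members differed from control under submergence (background 31.9%). Under flooding 61 of 108 did (background 40.5%). At least a 2-fold rise was called for 16 members under submergence (14.95%, background 4.65%) and 27 under flooding (25.0%, background 6.39%). At least a 2-fold fall was called for 1 member under submergence (0.93%, background 1.15%) and 2 under flooding (1.85%, background 2.42%). Both comparisons use the same 3 control samples. The stressed samples did not overlap the control samples for 40 members higher and 14 lower under submergence (background 16.6% and 21.9%), and for 40 higher and 19 lower under flooding (background 15.8% and 30.8%). The count of falls under flooding depended on the scaling, with 39 members up and 7 down when the samples were rescaled by median of ratios, where 13.8% of all genes were up and 12.4% down. The counts under submergence fell to 18 up and 1 down without control sample 2, where 4.72% and 2.59% of all genes tested were called. Without the 3 samples low in apex markers, 12 members were called up and 2 down under submergence (background 2.91% and 1.19%), and 38 up and 9 down under flooding (background 10.6% and 11.0%).

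**Figure D1:**
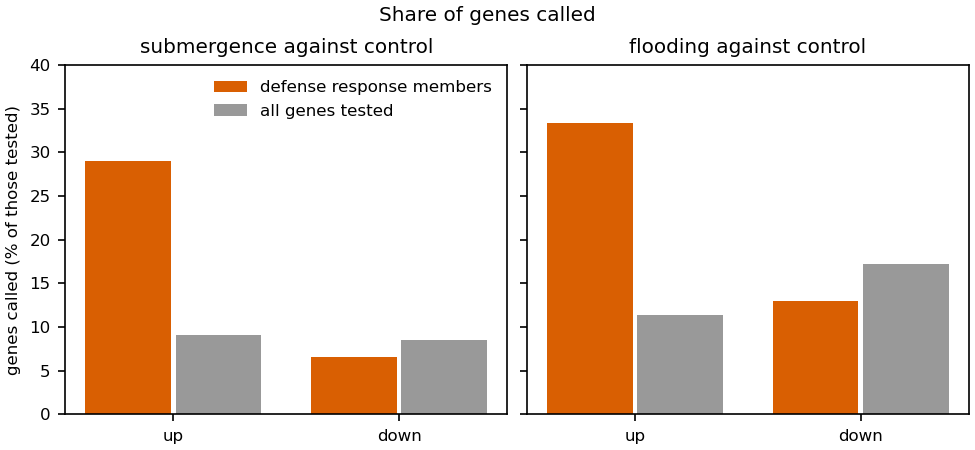
The bars give the percent of tested genes called up or down (limma, adjusted p under 0.05) in each stress against control, for the defense response members (orange) and for all genes tested (grey). Members were up in 29.0% and 33.3% of cases against 9.03% and 11.4% of all genes, and down in 6.5% and 13.0% against 8.45% and 17.2%.

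**Figure D2:**
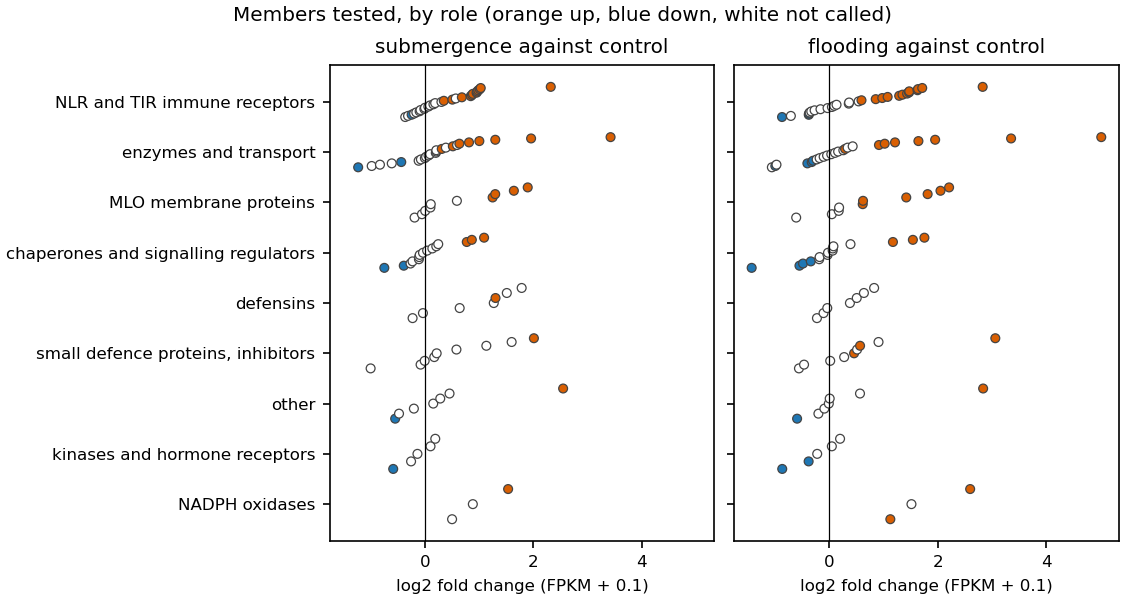
Each circle is 1 tested member, placed by its log2 fold change on the FPKM + 0.1 scale in submergence (left) or flooding (right) against control, in rows by role. Filled circles were called up (orange) or down (blue) and white ones were not called; the furthest point to the right is LOX4 in both panels, at 3.43 and 5.02.

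The members LOX3 and LOX4, lipoxygenases at the head of the JA pathway, rose in both stresses. LOX3 and LOX4 are 13-lipoxygenases of the chloroplast that oxidise linolenic acid on the way to JA. LOX4 (AT1G72520, chromosome 1, 27308513 to 27312756, plus strand, TAIR10) had 6.21, 4.31 and 5.42 FPKM in the control samples, 30.6, 70.1 and 88.4 under submergence and 176, 140 and 214 under flooding. The 3 groups did not overlap, and the lowest flooding sample lay above the highest submergence sample. Its log2 fold change was 3.43 ± 0.37 (SE, adjusted p = 0.00206) under submergence and 5.02 ± 0.18 (adjusted p = 4.92e-06) under flooding, the largest of all members in each comparison. LOX3 (AT1G17420) had 11.9, 10.09 and 9.50 FPKM in control, 28.0, 27.4 and 89.1 under submergence and 109, 66.6 and 172 under flooding. Submergence sample 3 of LOX3 was more than 3 times as high as the other submergence samples and overlapped the flooding range. The log2 fold changes of LOX3 were 1.96 ± 0.43 (adjusted p = 0.0240) and 3.36 ± 0.31 (adjusted p = 0.000199), and its call under submergence was lost when any 1 of the control samples was left out, with an adjusted p of up to 0.0916. LOX1, a 9-lipoxygenase and so of another branch, was not called, at 0.38 and 0.43.

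COI1, MYC3 and MYC4 of the JA pathway fell. COI1, the F-box protein of the JA receptor (AT2G39940, chromosome 2, 16672493 to 16675864, minus strand), had 24.0, 25.1 and 28.5 FPKM in control, 19.3, 16.6 and 15.7 under submergence and 14.5, 14.7 and 13.0 under flooding. Neither stress overlapped the control, and the log2 fold changes were -0.59 ± 0.11 (adjusted p = 0.0123) and -0.87 ± 0.10 (adjusted p = 0.000637). MYC4, a basic helix-loop-helix factor of JA responses, had 22.8, 21.3 and 23.8 FPKM in control, 18.01, 12.3 and 10.7 under submergence and 8.36, 10.3 and 6.58 under flooding. Its log2 fold change was -0.75 ± 0.18 (adjusted p = 0.0327) and -1.44 ± 0.16 (adjusted p = 0.000543), the largest fall of any member under flooding. MYC3, its close relative, changed by -0.39 (adjusted p = 0.0172) and -0.49 (adjusted p = 0.00433). The calls of these 3 genes under flooding were kept in all 14 refits with another setting or with 1 sample left out, while each lost its call under submergence in at least 2 of them.

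The 5 NADPH oxidases make superoxide at the plasma membrane. RBOHD (AT5G47910, chromosome 5, 19397041 to 19402061, plus strand), the main source of the immune oxidative burst in leaves, had 26.9, 22.7 and 23.2 FPKM in control, 58.2, 79.2 and 75.0 under submergence and 151, 140 and 150 under flooding. The groups did not overlap, with an SD of 11.1 FPKM under submergence and 6.0 under flooding (n = 3 each). The difference of RBOHD between the stresses was not called (adjusted p = 0.107 by limma). RBOHD rose by 1.53 ± 0.13 (adjusted p = 0.00111) and 2.599 ± 0.09 (adjusted p = 4.45e-06) on the log2 scale. RBOHF, which acts beside RBOHD in stomata and in immunity, had 7.45, 8.39 and 6.93 FPKM in control, 8.54, 14.1 and 22.9 under submergence and 18.7, 14.7 and 16.7 under flooding. Its flooding samples were close together and its submergence samples were spread over the whole range, so that it rose by 1.12 ± 0.12 (adjusted p = 0.00051) under flooding and had 0.88 ± 0.32 (adjusted p = 0.109) under submergence. RBOHC, the oxidase of root hair growth, was low, with 0.45, 0.42 and 0.25 FPKM in control, 0.16, 0.68 and 1.29 under submergence and 2.75, 1.07 and 0.60 under flooding. Its flooding samples all lay above the control samples, and its log2 fold change of 1.51 ± 0.53 under flooding was not called (adjusted p = 0.0704). RBOHA and RBOHB had means of at most 0.03 and were not tested.

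PEP3 (AT5G64905, PROPEP3) encodes the precursor of a small peptide that damaged cells release and that surface receptors sense. It was almost silent in control, at 0.50, 0.11 and 0.49 FPKM, and had 0.91, 2.34 and 1.87 under submergence and 6.24, 2.07 and 3.06 under flooding. Both stresses lay above the control in every sample, and the log2 fold changes were 2.01 ± 0.53 (adjusted p = 0.0412) and 3.06 ± 0.53 (adjusted p = 0.00499). The submergence call was lost in 9 of 13 refits, with an adjusted p of up to 0.123, and the flooding call in none. SYP121 (PEN1), a syntaxin that delivers vesicles to sites of attempted fungal entry, had 54.7, 51.3 and 58.6 FPKM in control, 102, 144 and 167 under submergence and 236, 181 and 224 under flooding. It rose by 1.296 ± 0.18 (adjusted p = 0.00437) and 1.95 ± 0.12 (adjusted p = 2.39e-05). PP2A5, a phloem-protein-like lectin, had 14.7, 12.7 and 17.4 FPKM in control, 69.4, 68.7 and 139 under submergence and 136, 70.4 and 127 under flooding. The stressed samples of PP2A5 spanned the same range in both stresses, with log2 fold changes of 2.55 ± 0.28 (adjusted p = 0.00206) and 2.84 ± 0.25 (adjusted p = 0.000163).

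**Figure D3:**
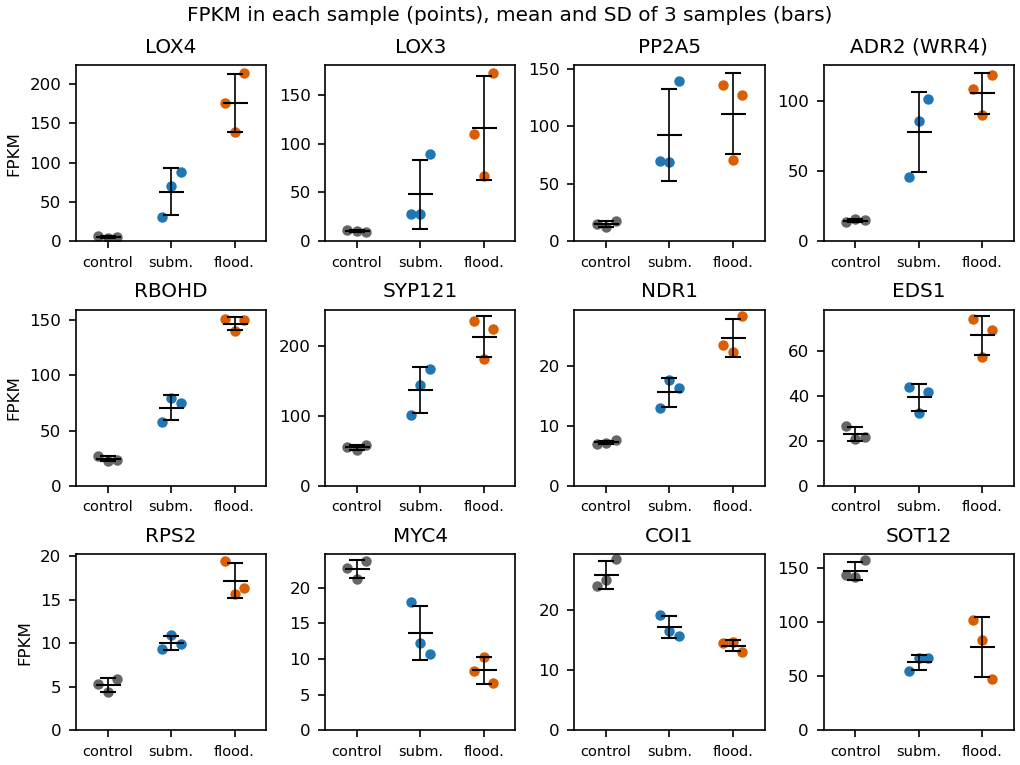
Each panel gives the FPKM of 1 member on a linear axis from 0, with a point for each of 3 samples per group and a bar for the mean and SD. The first 9 genes were higher in every stressed sample than in any control sample, as in RBOHD from at most 26.9 in control to at least 140 under flooding; MYC4, COI1 and SOT12 were lower in every stressed sample.

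NLR receptors made up the largest group, and submergence raised 12 of the 27 tested and lowered 1, while flooding raised 13 of 28 and lowered 3. Over all genes 9.03% and 8.45% were raised and lowered by submergence and 11.4% and 17.2% by flooding. The median log2 fold change of those tested was 0.30 and 0.45. ADR2 (WRR4, AT1G56510), a TIR-type NLR known for resistance to white rust, rose furthest, from 13.7, 15.6 and 14.9 FPKM in control to 46.1, 86.0 and 102 under submergence and 109, 90.0 and 119 under flooding. All its stressed samples were more than 2 times any control sample, and the log2 fold changes were 2.32 ± 0.27 (adjusted p = 0.00262) and 2.83 ± 0.12 (adjusted p = 6.75e-06). RPS2, which senses the loss of RIN4 and signals through NDR1, had 5.32, 4.34 and 5.87 FPKM in control, 9.29, 10.9 and 9.95 under submergence and 19.5, 15.7 and 16.3 under flooding. Its 3 groups were separate, at 0.95 ± 0.13 (adjusted p = 0.00503) and 1.71 ± 0.14 (adjusted p = 0.000123). The difference of RPS2 between the stresses was not called. RPM1, the other receptor that guards RIN4, changed by 0.87 and 0.97, and was called in both comparisons. TIR (AT1G72930), a short protein of the TIR domain alone and the most abundant member of this group, had 89.5, 91.6 and 114 FPKM in control, 167, 229 and 208 under submergence and 308, 269 and 341 under flooding, with log2 fold changes of 1.03 and 1.64. RPP13L4 (ZAR1), which forms a channel-like resistosome in the membrane, had means of 66.6, 124 and 187 FPKM in control, submergence and flooding and changed by 0.88 and 1.47. The calls of these 5 receptors were kept in all 14 refits.

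The helper NLRs of the ADR1 family pass the signal of other receptors on. ADR1-L1 changed by 1.01 and 1.35, ADR1-L2 by 0.84 and 1.29, and all 4 values were called. ADR1 itself was not called, at 0.00 and 0.54 (adjusted p = 0.0759 under flooding), and ADR1-L3 was listed at 0 in all samples. VICTL and its tandem neighbour VICTR (AT5G46520), on the same strand of chromosome 5, both code for TIR-type NLRs. VICTL had 10.3, 9.43 and 8.95 FPKM in control, 16.4, 19.6 and 20.2 under submergence and 32.0, 26.5 and 30.7 under flooding, and rose by 0.96 ± 0.11 (adjusted p = 0.00223) and 1.63 ± 0.10 (adjusted p = 3.32e-05). VICTR was lower, with control samples of 2.54 to 3.13 FPKM, and was called under flooding alone, at 1.07 (adjusted p = 0.00516) against 0.57 (adjusted p = 0.0552) under submergence. The difference between the stresses was not called for VICTL or VICTR. Neighbours did not always move alike. In the head-to-head pair CSA1 and DAR4 (CHS3), CSA1 changed by -0.20 and -0.38, with only the fall under flooding called (adjusted p = 0.0274), and DAR4 by 0.50 and 0.36, with only the rise under submergence called (adjusted p = 0.0206). Each of these calls was lost when control sample 2 was left out. The head-to-head pair RPS4 and RRS1, which work as a receptor complex, was called in neither comparison, with log2 fold changes between -0.17 and 0.09.

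SUMM2, an NLR that guards a MAP kinase cascade, was the member of this group that fell furthest. It had 8.46, 8.87 and 11.6 FPKM in control, 8.34, 6.92 and 6.98 under submergence and 5.39, 5.60 and 4.55 under flooding. The 3 groups did not overlap, but the difference between the stresses was not called. SUMM2 fell by 0.88 ± 0.15 (adjusted p = 0.00482) under flooding, and its value of -0.37 ± 0.15 under submergence was not called (adjusted p = 0.138). RPP8, a receptor for downy mildew from a family with near-identical copies, fell slightly, from 65.6, 64.4 and 64.9 FPKM in control to 54.6, 54.0 and 55.3 under submergence and 54.6, 47.8 and 47.7 under flooding. Its call was lost in 8 of 14 refits under submergence and 4 of 14 under flooding, each time including those without any 1 control sample. Reads shared with such copies could have been split by the counting, which makes RPP8 and RPP1 uncertain. RLM3, a TIR-domain gene for resistance to fungi, changed by 0.34 under submergence (adjusted p = 0.0483), a call lost in 11 of 14 refits.

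**Figure D4:**
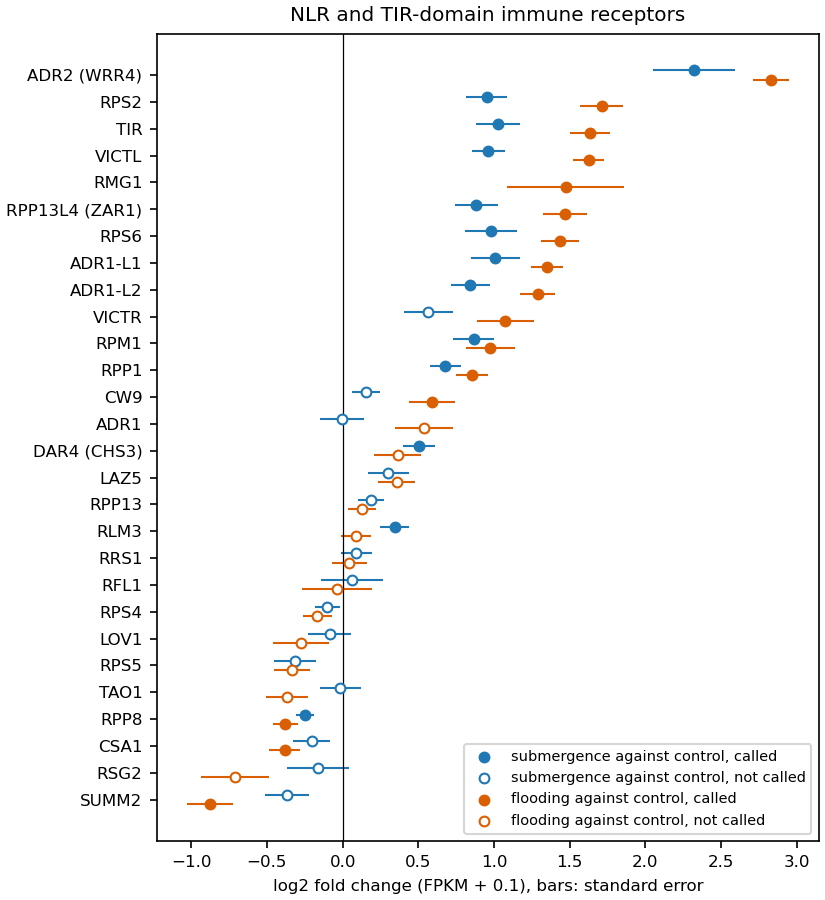
The points give the log2 fold change (FPKM + 0.1) of the 28 NLR and TIR-domain members tested, in submergence (blue) and flooding (orange) against control, with bars for the standard error; filled points were called at adjusted p under 0.05. ADR2 (WRR4) stood furthest to the right at 2.32 and 2.83, and SUMM2 furthest to the left at -0.37 and -0.88.

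The regulators that act next to NLRs included 3 that rose in each stress. EDS1, the lipase-like protein through which TIR-type NLRs signal, had 26.4, 20.5 and 21.8 FPKM in control, 43.7, 32.3 and 41.4 under submergence and 74.0, 57.3 and 69.0 under flooding. Its groups did not overlap, at 0.77 ± 0.14 (adjusted p = 0.0134) and 1.54 ± 0.13 (adjusted p = 0.000148), and the submergence call was lost without control sample 2 or 3. EDS1 has a near-identical copy beside it in this genotype, so its reads may have been split. NDR1, a membrane protein needed by RPS2 and RPM1, had 7.04, 7.07 and 7.60 FPKM in control, 13.0, 17.6 and 16.3 under submergence and 23.5, 22.4 and 28.4 under flooding, with log2 fold changes of 1.09 ± 0.13 (adjusted p = 0.00254) and 1.75 ± 0.11 (adjusted p = 3.15e-05). SGT1A, a co-chaperone that stabilises NLRs, changed by 0.86 and 1.17, both called. Its partners among the members were not called. RAR1 was at 0.21 and 0.06 and HSP81-2, an HSP90 chaperone, at 0.04 and 0.39. The flooding samples of HSP81-2 were widely spread, at 252.89, 298.21 and 150.89 FPKM. HSP90.1, an HSP90 chaperone that is not a member, was called under flooding at 0.81 (adjusted p = 0.00246). Under submergence HSP90.1 was not called, at 0.54 (adjusted p = 0.300). UBA2A, an RNA-binding protein, had 91.7, 87.1 and 86.2 FPKM in control, 77.74, 68.15 and 74.04 under submergence and 63.1, 60.7 and 56.6 under flooding. It fell by 0.55 ± 0.08 (adjusted p = 0.0018) under flooding, and its value of -0.27 under submergence was not called (adjusted p = 0.0515). The receptor kinase SNC4 and the kinase PBS1, a guarded effector target, were called in neither comparison. The ubiquitin ligase KEG fell by 0.39 under flooding (adjusted p = 0.0460), a call lost in 7 of 14 refits, and had -0.26 under submergence (adjusted p = 0.0874).

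A list of 28 genes of NLR signalling, SA synthesis and the oxidative burst put these members in their pathway. It was drawn from textbook knowledge, but with earlier results of these data known. It shares 11 genes with the members. Of the other 17, 15 were tested, of which submergence raised 7 and flooding 12 and neither lowered any. The background was 9.03% and 11.4% raised, and 8.45% and 17.2% lowered. RIN4, SGT1B and NPR4 were called in neither comparison, with NPR4 at -0.52 (adjusted p = 0.0738) under submergence. EDS1's partners PAD4 and SAG101 changed by 1.48 and 1.02 under submergence and by 2.405 and 1.24 under flooding. CBP60G and SARD1, the transcription factors that switch on SA synthesis, changed by 2.09 and 1.64 under submergence and 3.11 and 2.98 under flooding. Further along the same route, ICS1, which makes the SA precursor isochorismate, was called under flooding at 0.69 (adjusted p = 0.00218) and not under submergence at 0.31 (adjusted p = 0.0761). The member DTX47 (EDS5), which exports isochorismate from the chloroplast, had 4.80, 3.59 and 4.10 FPKM in control, 8.42, 6.15 and 11.4 under submergence and 17.2, 11.3 and 11.6 under flooding, and changed by 1.00 (adjusted p = 0.0257) and 1.64 (adjusted p = 0.000676). The submergence call of DTX47 was lost when any 1 control sample was left out. PBS3, the enzyme that acts on isochorismate next, changed by 1.07 and 1.95, both called. PR1, the usual late marker of SA responses, was not called at 30 min. It had 31.4, 50.1 and 21.5 FPKM in control, 17.6, 17.4 and 92.8 under submergence and 60.1, 21.8 and 7.92 under flooding, so that its spread within each group exceeded any difference between them.

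MLO proteins span the membrane, bind calmodulin and are known for the resistance to powdery mildew that plants gain when MLO2, MLO6 and MLO12 are lost. Of 15 members, 10 were tested. Submergence raised 4 of them (background 9.03%) and flooding 6 (background 11.4%), and neither lowered any (background 8.45% and 17.2%). MLO2, the most abundant at 93.8, 90.2 and 92.0 FPKM in control, had 89.7, 102 and 105 under submergence and 145, 137 and 143 under flooding. MLO2 was thus close to control in still water, at 0.10 ± 0.08 (adjusted p = 0.452), and rose by 0.62 ± 0.07 (adjusted p = 0.000689) under flooding. The difference of MLO2 between the stresses was not called (adjusted p = 0.132 by limma). MLO12 and MLO6 were far lower, at most 0.71 and 1.62 FPKM in control. MLO12 had 1.51, 2.18 and 3.55 FPKM under submergence and 4.78, 1.80 and 2.68 under flooding, with log2 fold changes of 1.90 (adjusted p = 0.0123) and 2.21 (adjusted p = 0.00428). MLO6 had 2.71, 5.13 and 7.63 FPKM under submergence and 7.30, 5.30 and 6.59 under flooding, with 1.64 (adjusted p = 0.0205) and 2.05 (adjusted p = 0.000116). MLO8 and MLO4, of which MLO4 is known for its part in root responses to touch, changed by 1.29 and 1.25 under submergence and 1.81 and 1.42 under flooding, all called. MLO11 changed by 0.61 under flooding (adjusted p = 0.0326), a call lost in 6 of 14 refits, and had 0.59 under submergence (adjusted p = 0.155). MLO1, MLO3, MLO10 and MLO13 were called in neither comparison. Each of MLO4, MLO6, MLO8 and MLO12 lost its submergence call in at least 1 refit that left out a control sample, and kept its flooding call in all.

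**Figure D5:**
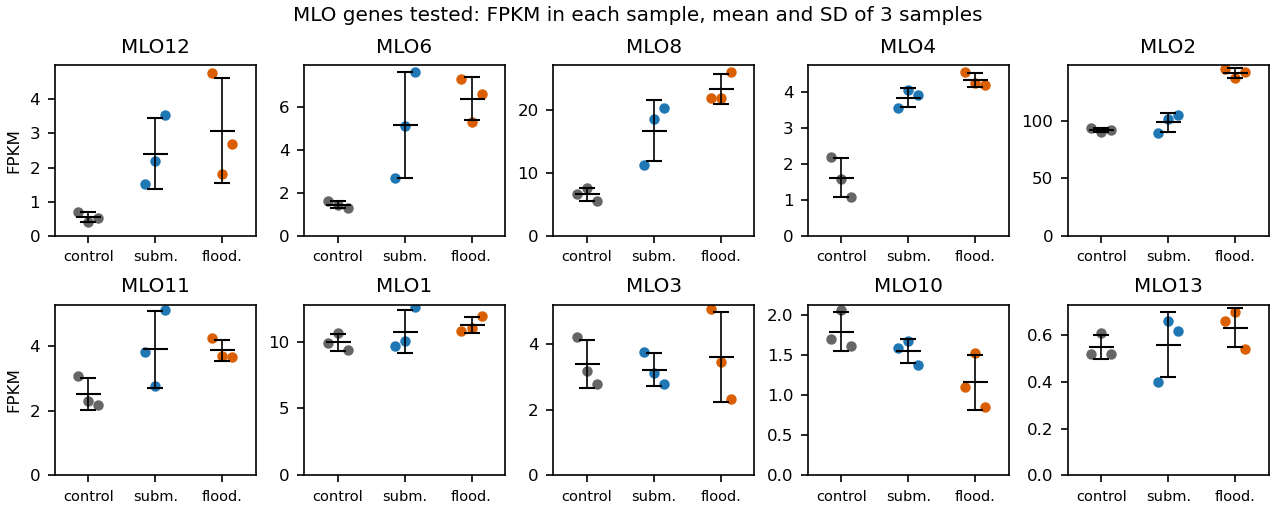
Each panel gives the FPKM of 1 of the 10 MLO genes tested on a linear axis from 0, with a point for each sample and a bar for the mean and SD of 3. MLO2 was at 137 to 145 FPKM under flooding and at 89.7 to 105 in both other groups, and its difference between the stresses was not called. MLO12 and MLO6 were higher in both stresses than in control.

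Among the enzymes, GSTF8, a glutathione transferase long used as an early stress marker, had 79.1, 88.3 and 86.5 FPKM in control, 136, 153 and 157 under submergence and 191, 193 and 203 under flooding. Its samples were tight within groups, and it changed by 0.81 ± 0.09 (adjusted p = 0.00192) and 1.21 ± 0.08 (adjusted p = 3.83e-05). GSTF9, of the same class, was among the most abundant members and went down under submergence alone, by -0.44 (adjusted p = 0.0436), from 594, 575 and 650 FPKM to 480, 485 and 381. That call was lost in 9 of 14 refits. PAL1 and PAL2, which commit phenylalanine to phenylpropanoids, changed by 1.02 and 0.91 under flooding, both called, and by 0.59 (adjusted p = 0.0593) and 0.63 (adjusted p = 0.0317) under submergence. The submergence call of PAL2 was lost in 6 of 14 refits, with an adjusted p of up to 0.114. SOT12, a sulfotransferase that acts on SA and other compounds, fell most under submergence. It had 143, 142 and 157 FPKM in control, 54.9, 66.3 and 66.8 under submergence and 102, 83.1 and 47.1 under flooding. Every stressed sample lay below every control sample, with log2 fold changes of -1.24 ± 0.10 (adjusted p = 0.000893) and -1.001 ± 0.25 (adjusted p = 0.0236). The flooding call of SOT12 was lost without any 1 control sample. CNGC2, a cyclic-nucleotide-gated calcium channel, had 40.9, 44.2 and 38.6 FPKM in control, 43.2, 47.4 and 51.4 under submergence and 26.7, 31.3 and 35.7 under flooding. It fell by 0.41 under flooding (adjusted p = 0.0387), a call lost in 9 of 14 refits, and had 0.20 under submergence. FAB2, a desaturase of stearic acid in the chloroplast, fell by 0.30 under flooding (adjusted p = 0.0201), a call lost in 5 of 14 refits, among them those without any 1 control sample. Under submergence FAB2 had -0.12 (adjusted p = 0.438). ECS1, the most abundant member, had 752, 889 and 937 FPKM in control, 651, 526 and 578 under submergence and 694, 809 and 918 under flooding, and was called down under submergence alone (-0.55, adjusted p = 0.0240), a call lost in 5 of 14 refits. The lectin-like MBP1 fell by 0.60 under flooding (adjusted p = 0.0312), a call lost in 7 of 14 refits, and had -0.48 under submergence (adjusted p = 0.153).

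Defensins are small antimicrobial peptides. Of 7 tested, 1 was called up under submergence and none under flooding, where 1 had an unadjusted p under 0.05; with 9.03% and 11.4% of all genes called up, these counts are near the background. That gene, PDF1.3, had 7.32, 7.35 and 16.9 FPKM in control, 19.0, 30.7 and 23.9 under submergence and 20.3, 17.4 and 14.6 under flooding, and its call under submergence (1.3005, adjusted p = 0.0420) was lost in 7 of 14 refits. PDF1.2A, the classic marker of combined JA and ethylene signals, had 28.9, 15.8 and 83.7 FPKM in control, 76.3, 85.4 and 82.6 under submergence and 62.5, 33.5 and 52.4 under flooding. Control sample 3 was as high as the submergence samples, and the log2 fold changes of 1.27 (adjusted p = 0.154) and 0.50 (adjusted p = 0.549) were not called. PDF1.2B and PDF1.2C were likewise not called, with control samples from 1.24 to 13.1 and from 2.76 to 29.1 FPKM. PDF1.2A, PDF1.2B, PDF1.2C and PDF1.3 are near-identical and reads may have been split between them, so their separate values are uncertain. PDF2.2 and PDF2.3 were the steady defensins, at means of 37.2 and 62.6 FPKM over all samples, and were not called. The neighbouring genes PGIP1 and PGIP2 encode inhibitors of the polygalacturonases with which fungi digest cell walls. PGIP1 changed by -0.01 and PGIP2 by 0.21 under submergence, neither called, and by 0.57 (adjusted p = 0.00424) and 0.45 (adjusted p = 0.00411) under flooding. ML3, a lipid-binding protein, was called in neither comparison.

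Flooding was also compared with submergence, which differ in both flow and vessel. No member of the 108 tested was called, nor was any of the 18864 genes, where the smallest adjusted p of a member was 0.107. At an unadjusted p under 0.05, 32 members differed, 19 higher and 13 lower under flooding, against 4.88% higher and 9.85% lower over all genes. With all 9 samples in one fit, 5 members were called higher and 1 lower, against 0.47% and 0.74% of all genes. The median log2 difference of the members was 0.03. The smallest p belonged to RBOHD, at 1.07 ± 0.13 (unadjusted p = 9.5e-05), followed by RPS2 at 0.76 ± 0.12 (unadjusted p = 0.000425), PDF1.2B at -1.13 ± 0.20 (unadjusted p = 0.000887), PDF1.2C at -1.15 ± 0.21 (unadjusted p = 0.000989) and MLO2 at 0.52 ± 0.10 (unadjusted p = 0.001). For each of these 5 the flooding samples did not overlap the submergence samples. The 5 were picked by their p in these same samples, so that separation adds no support. The groups did not overlap for 19 members that were higher (17.6%, background 6.2%) and 18 that were lower (16.7%, background 15.4%). LOX4 differed by 1.595 ± 0.39, EDS1 by 0.77 ± 0.15 and NDR1 by 0.66 ± 0.15, none called, with adjusted p of 0.179, 0.155 and 0.175. The difference for PP2A5 was 0.29 ± 0.35 and for MLO12 0.31 ± 0.42, too wide to place either stress above the other.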

How the data were processed

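Expression was measured by RNA-Seq in 9 shoot samples, in 3 groups of 3 taken from the sample labels. The authors' methods describe trimming, mapping to TAIR10 with STAR, counting with featureCounts and a DESeq2 test of counts (version 1.20.0 in the submitters' processing notes). The deposited values are FPKM per gene and sample, normalized by the authors to library total and transcript length. The name under which they were deposited points to another counter, and which of them made the values is not given in the sources used here. The columns of stressed samples carry no stress name and were assigned from the headings of the paper's plots. Read depth per gene cannot be had from FPKM, so precision is given as the spread of 3 samples; the FPKM of all genes sum to 752249 to 786474 per sample.

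For each comparison, limma 3.58.1 (R 4.3.3) was run with an eBayes trend on log2(FPKM + 0.1) of the 6 samples concerned. Genes entered at a mean of at least 0.5 FPKM, with Benjamini-Hochberg adjustment over all genes tested. A log2 fold change on this scale understates the change of genes near 0.1 FPKM. An exact permutation test of 3 against 3 cannot go below p = 0.1. The fit was tested on simulated data. Nothing in the labels says that equal numbers share a batch, and not every pair of equal number deviated together, so the number was not used to pair samples.

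The members, role groups, pathway list and tests were chosen with earlier results of these data known. Members named were the 10 largest called rises and falls of each stress, the 5 smallest p between stresses, the 10 most abundant and up to 4 of each role; other members named were chosen after their values were seen. Alternatives were a pseudocount of 1, no filter, a mean of at least 2 FPKM, median-of-ratios and quantile scaling, eBayes without trend, all 9 samples in one fit, a replicate block, a minimum of 2-fold, the whole term, and leaving out each sample. All but the 2-fold minimum and the whole term refit the same genes, 14 refits for each stress (13 for genes under 2 FPKM). Promoters were read from RefSeq TAIR10.1 by gene position. Python 3.11.15, pandas 2.3.3 and matplotlib 3.10.9 made the tables and plots.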

Additional observations from a re-analysis of the deposited data

How the results depend on the processing

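FPKM without read counts, 3 samples a group and one pool per sample limit what can be called. Of 36 members up under flooding, 31 kept the call in all refits; of 14 down, 5 did (SUMM2, COI1, UBA2A, MYC4 and MYC3). Under submergence 17 of 31 rises and 1 of 7 falls (SOT12) did. Members up under submergence numbered 31, and 16 with a minimum of 2-fold, 18 to 34 when 1 sample was left out, and 12 without control 2, submergence 3 and flooding 3 together, an alternative chosen after seeing the data. Of all genes tested, 9.03% were up under submergence and 4.65% with a minimum of 2-fold. That share was 4.72% to 10.8% when 1 sample was left out and 2.91% without those 3 samples. Members down under submergence numbered 7, and 1 with a minimum of 2-fold, 4 without the eBayes trend, 3 with the replicate block, 1 to 9 when 1 sample was left out, 2 without those 3 samples together and 11 over the whole term. The share of all genes down was 8.45%, and 1.15% with a minimum of 2-fold, 6.67% without the trend and 5.37% with the block. It was 2.59% to 11.7% when 1 sample was left out and 1.19% without those 3 samples. Members down under flooding numbered 14, and 2 with a minimum of 2-fold, 7 with median-of-ratios scaling, 9 with the replicate block, 6 to 13 when 1 sample was left out and 9 without those 3 samples. The share of all genes down was 17.2%, and 2.42% with a minimum of 2-fold, 12.4% with that scaling and 13.3% with the block. It was 8.73% to 18.2% when 1 sample was left out and 11.0% without those 3 samples. Members up under flooding ranged from 32 to 41 when 1 sample was left out, and all genes up from 8.47% to 14.3%. Between the stresses, all 9 samples in one fit called 5 up and 1 down (0.47% and 0.74% of all genes), against 0 members otherwise. A minimum of 2-fold is stricter by construction, leaving out samples leaves fewer of them, and for the other changes the cause was not tested.

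The replicate block gave 27 members up under submergence, where 7.92% of all genes were up. The group mean of each gene was subtracted from its log2 values, and these deviations were correlated over genes between same-numbered samples. The correlations ran between -0.14 and 0.12 for submergence and control and between -0.15 and 0.12 for flooding and control. For flooding and submergence they ran between 0.064 and 0.47. With the block RBOHC was called up under flooding (adjusted p = 0.0456 by limma), which it was not without. Of the 65 results for named members that were called, none changed direction; 80 of 390 values that left out a sample and 40 of 517 under other settings lost the call. Among the 88 not called, 8 and 10 such values passed the threshold. Directions turned only among the uncalled. With median-of-ratios scaling the log2 fold change of PGIP1 under submergence was 0.017, of ECS1 under flooding 0.0019 and of PDF2.2 between the stresses 0.0077; with quantile normalization HSP81-2 under submergence had -0.0025 and ML3 between the stresses -0.017. When 1 sample was left out, the log2 fold changes under submergence ran for PDF2.2 from -0.24 to 0.13, PR1 from -0.88 to 0.32, PGIP1 from -0.18 to 0.24 and HSP81-2 from -0.0081 to 0.10. Those under flooding ran for ECS1 from -0.19 to 0.010, PDF2.2 from -0.21 to 0.051, PR1 from -1.29 to 0.16, PDF1.2B from -0.58 to 1.07, GSTF9 from -0.26 to 0.060, ML3 from -0.45 to 0.25, PDF1.2A from -0.040 to 1.158 and PDF1.2C from -0.17 to 1.51. Without control 2, PDF1.2A, PDF1.2B and PDF1.2C were at their lowest. Between the stresses they ran for MBP1 from -0.27 to 0.097, RBOHF from -0.11 to 0.59, PDF2.2 from -0.24 to 0.13, PDF2.3 from -0.13 to 0.12, PR1 from -1.21 to 0.32, MLO12 from -0.047 to 0.63, PBS1 from -0.060 to 0.12 and ML3 from -0.25 to 0.46.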
